A study of Mus musculus with 16 samples.

Results

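Krüppel-like factors (KLFs) are transcription factors with zinc fingers at the carboxy terminus that bind GC-rich and CACCC sequences, while the rest of the protein differs between members and recruits corepressors or coactivators. In the intestinal epithelium, KLF5 is known from proliferating crypt cells and KLF4 from differentiating cells and goblet cells. KLF6 and KLF10 are known as genes that respond quickly to growth factors and cytokines. The 8 genes described here, Klf3, Klf4, Klf5, Klf6, Klf9, Klf10, Klf13 and Klf15, were selected on the counts of these same cultures, compared across the 4 groups. They are 8 of 49585 genes in the table and 8 of 17 KLF genes of the mouse annotation. Because these counts chose them, each adjusted p printed for a member describes the place of that gene among all tested genes and supports nothing about the family.

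The series asked how the autophagy gene Atg16l1 shapes the answer of the epithelium to IL-22, a cytokine of lymphoid cells whose receptor sits on epithelial cells and signals through STAT3. RNA was sequenced from small intestinal organoids, crypt epithelium grown in Matrigel in stem cell medium. Mice on a C57BL/6 background, 8 to 12 wk of age, were the source. ΔIEC organoids carried villin-cre and floxed Atg16l1 alleles, so that the gene is deleted in intestinal epithelium, and fl/fl organoids carried the same floxed alleles without the cre. Each genotype was left untreated or was given IL-22 at 10 ng/ml for 24 h. This gave 4 groups of 4 cultures: fl/fl untreated, fl/fl with IL-22, ΔIEC untreated and ΔIEC with IL-22. Each genotype came from 2 organoid lines: replicates 1 and 2 of a group are cultures of the first line and replicates 3 and 4 cultures of the second. The p-values therefore measure the spread between cultures of 2 lines per genotype, and a difference of the lines and a difference of the genotypes cannot be told apart.

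The counts assigned to genes set the depth. They were 3478243, 4024054, 2135000 and 3673205 in fl/fl untreated replicates 1 to 4, and 2704302, 4606507, 5574860 and 3437907 in fl/fl with IL-22. They were 3976507, 3847890, 2347992 and 2268697 in ΔIEC untreated, and 2573720, 3562967, 3369717 and 3520310 in ΔIEC with IL-22. Levels are given as CPM, gene counts scaled to a common library size with TMM factors. A count of 3, taken as the floor, was worth 0.563 CPM in the deepest culture and 1.36 CPM in the shallowest. The tables were made from bulk RNA, in which fewer cells of a type and less RNA per cell cannot be told apart.

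Atg16l1 (ENSMUSG00000026289.15), the targeted gene, was read first as a check of the genotype labels. Its level was 38.9, 31.6, 41.2 and 49.2 CPM in fl/fl untreated and 39.2, 40, 51.8 and 48.8 CPM in fl/fl with IL-22. It was 2.59, 2.71, 1.21 and 4.15 CPM in ΔIEC untreated and 0.81, 5.96, 0.302 and 0.289 CPM in ΔIEC with IL-22. All 8 ΔIEC cultures lay below all 8 fl/fl cultures, as the labels require. Against fl/fl, ΔIEC had -3.90 on the log2 scale untreated (SE 0.37, adjusted p = 1.27e-06) and -4.51 with IL-22 (SE 0.38, adjusted p = 2.25e-07). Apart from replicate 2, the treated ΔIEC cultures had 2, 1 and 1 counts, under the floor, so the size of the treated fold change is not determined. It passed under every alternative in which the gene was tested, and was -3.59 at its smallest. The untreated call was lost with the cultures of a line summed (adjusted p = 0.0125). Markers of epithelium were read in every culture, with Krt8 the most abundant at a mean of 2983 CPM and Epcam at 1412 CPM. Of 10 stromal, endothelial and muscle markers none reached the filter for testing. Their summed level was at most 7.25 CPM in any culture, with Vim the most abundant and Cdh5 at 0 in all 16 cultures. Of 9 immune markers, Cd3e and Itgax were among those at 0 in all 16 cultures.

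Klf6 (ENSMUSG00000000078.6, chr13:5861482-5870394 on the + strand of GRCm38), an early response gene of many cell types, had the largest fold change with IL-22 among the 7 members that could be tested. Its level was 146, 129.9, 122 and 118 CPM in fl/fl untreated and 384, 383, 354 and 393 CPM in fl/fl with IL-22. It was 87, 106, 134 and 121 CPM in ΔIEC untreated and 250.3, 179.8, 324 and 293 CPM in ΔIEC with IL-22. Every treated culture lay above every untreated culture of its genotype. Every ΔIEC culture with IL-22 also lay below every fl/fl culture with IL-22; the lowest of them was replicate 2. The untreated cultures of the genotypes overlapped. IL-22 raised Klf6 by 1.55 on the log2 scale in fl/fl (SE 0.14, adjusted p = 1.2e-07), a fold of 2.93, and by 1.23 in ΔIEC (SE 0.14, adjusted p = 2.52e-06), a fold of 2.35. Within the lines, the log2 ratio of the mean treated to the mean untreated level was 1.48 and 1.63 in the fl/fl lines and 1.15 and 1.27 in the ΔIEC lines. With IL-22, Klf6 was lower in ΔIEC than in fl/fl by -0.53 on the log2 scale (SE 0.14, adjusted p = 0.00615).

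This last call of Klf6 was near the threshold of 0.01 and depended on the cultures used. It was lost without fl/fl with IL-22 replicate 1 (adjusted p = 0.0145), 2 (0.0147) or 4 (0.0157) and without ΔIEC with IL-22 replicate 1 (0.0176) or 2 (0.0196). Without that replicate 2 the log2 value was -0.39. The call was also lost in a fit of the compared groups only (0.0109), with the cultures of a line summed (0.0954), and without the first (0.0259) or second (0.0229) fl/fl line. In these fits the log2 value was between -0.55 and -0.54. Between the ΔIEC lines it moved more: it was -0.30 without the first ΔIEC line, where the call was lost (0.0375), and -0.85 without the second. Between untreated genotypes Klf6 had -0.21 on the log2 scale (SE 0.15, adjusted p = 0.321).

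Klf4 and Klf5 are the members best known from the intestine. Klf4 (ENSMUSG00000003032.8, chr4:55527143-55532466, - strand), a factor of cell cycle exit and goblet cell maturation, was at 59.9, 41.6, 45.3 and 37.7 CPM in fl/fl untreated and at 104, 113, 99.7 and 106 CPM in fl/fl with IL-22. It was at 32.8, 38.4, 57.1 and 51.1 CPM in ΔIEC untreated and at 54.7, 60.5, 108 and 90.9 CPM in ΔIEC with IL-22. The fl/fl groups were apart. In ΔIEC the groups overlapped, since the second line was above the first both untreated and treated, while within each line both treated cultures were above both untreated ones. IL-22 raised Klf4 by 1.20 on the log2 scale in fl/fl (SE 0.19, adjusted p = 8.1e-05) and by 0.85 in ΔIEC (SE 0.20, adjusted p = 0.00291). The log2 ratio within the lines was 1.10 and 1.31 in fl/fl and 0.69 and 0.88 in ΔIEC. The ΔIEC call was lost without ΔIEC untreated replicate 1 (adjusted p = 0.0166) or 2 (0.015), without ΔIEC with IL-22 replicate 3 (0.0152) or 4 (0.0131), and without the second ΔIEC line (0.0195). With the cultures of a line summed, the adjusted p was 0.0182 in fl/fl and 0.0756 in ΔIEC. Between genotypes the log2 fold change of Klf4 was -0.070 untreated (adjusted p = 0.848) and -0.42 with IL-22 (SE 0.18, adjusted p = 0.0815). The treated value passed the threshold without a filter on low counts (adjusted p = 0.00213) and without the second ΔIEC line, where it was -0.90 (adjusted p = 0.000431). Without the first ΔIEC line it was -0.096 (adjusted p = 0.678).

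Klf5 (ENSMUSG00000005148.7, chr14:99298691-99315036, + strand), a factor of crypt proliferation, was at 153, 162, 147 and 146 CPM in fl/fl untreated and at 227, 230.4, 240.3 and 244 CPM in fl/fl with IL-22. It was at 119, 140.5, 145 and 157 CPM in ΔIEC untreated and at 184, 262, 266 and 241 CPM in ΔIEC with IL-22. Treated and untreated cultures were apart in both genotypes, and the genotypes overlapped both untreated and treated. The lowest treated ΔIEC culture was replicate 1, and replicate 2 of the same line was close to the second line. Klf5 rose with IL-22 by 0.63 on the log2 scale in fl/fl (SE 0.10, adjusted p = 8.21e-05) and by 0.77 in ΔIEC (SE 0.10, adjusted p = 9.39e-06). The fl/fl call was lost without the second fl/fl line (adjusted p = 0.0178). Between genotypes the log2 fold change was -0.12 untreated (SE 0.10, adjusted p = 0.436) and 0.019 with IL-22 (SE 0.099, adjusted p = 0.905).

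Klf3 (ENSMUSG00000029178.14, chr5:64803388-64832901, + strand), a repressor that acts through the corepressor CtBP, was at 175, 166, 165 and 172 CPM in fl/fl untreated and at 252, 243, 254 and 258 CPM in fl/fl with IL-22. It was at 168, 174, 169.7 and 180.3 CPM in ΔIEC untreated and at 224, 213, 236 and 236 CPM in ΔIEC with IL-22. The SD within a group was between 5.11 and 11 CPM. The treated cultures were above the untreated ones in both genotypes, and the treated ΔIEC cultures were below the treated fl/fl cultures without overlap. IL-22 raised Klf3 by 0.57 on the log2 scale in fl/fl (SE 0.062, adjusted p = 1.01e-06) and by 0.40 in ΔIEC (SE 0.062, adjusted p = 6.4e-05). The ΔIEC call was lost with the cultures of a line summed (adjusted p = 0.0247) and without the second ΔIEC line (adjusted p = 0.0277). Although the treated genotypes did not overlap, their log2 fold change of -0.15 did not pass (SE 0.061, adjusted p = 0.0725), and untreated it was 0.027 (adjusted p = 0.8). Of the exon bases of Klf3, 404 overlap Gm20033, a transcript of the opposite strand. The strand setting of the counting was not given in the sources used here, so reads from Klf3 and from Gm20033 cannot be told apart over these bases.

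Klf10 (ENSMUSG00000037465.9, chr15:38291463-38300706, - strand), first described as a gene induced early by TGF-β, was at 80.1, 73.5, 77.5 and 82.9 CPM in fl/fl untreated and at 134, 118, 150 and 137 CPM in fl/fl with IL-22. It was at 47.2, 59.5, 48.7 and 67.3 CPM in ΔIEC untreated and at 88.3, 73, 96.7 and 95.8 CPM in ΔIEC with IL-22. Here the ΔIEC groups lay below the fl/fl groups of the same treatment without overlap, and the treated groups above the untreated ones without overlap. Treated ΔIEC cultures reached about the level of untreated fl/fl cultures, with means of 88.5 ± 11 and 78.5 ± 4 CPM (SD, n = 4). Klf10 rose with IL-22 by 0.78 on the log2 scale in fl/fl (SE 0.11, adjusted p = 2.2e-05) and by 0.67 in ΔIEC (SE 0.12, adjusted p = 0.000189). The ΔIEC call was lost with the cultures of a line summed (adjusted p = 0.0125) and without the second ΔIEC line (adjusted p = 0.0189).

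In ΔIEC against fl/fl, Klf10 was lower by -0.50 on the log2 scale untreated (SE 0.12, adjusted p = 0.00511) and by -0.61 with IL-22 (SE 0.11, adjusted p = 0.000364). The untreated call was lost without fl/fl untreated replicate 1 (adjusted p = 0.0147) or 4 (0.0143) and without ΔIEC untreated replicate 1 (0.0278) or 3 (0.0192). It was also lost in limma-voom with the line as a correlated block (0.0144), with the cultures of a line summed (0.0791) and without any 1 of the 4 lines (0.0123 to 0.0461). The treated call was kept without each single culture. It was lost with the cultures of a line summed (adjusted p = 0.0221) and without the first ΔIEC line (adjusted p = 0.0106).

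Klf9 and Klf13 are related repressors that bind the corepressor Sin3A, and Klf9 is known as a gene induced by glucocorticoids. Klf9 (ENSMUSG00000033863.1, chr19:23141226-23168134, + strand) was at 62.8, 64.1, 41.7 and 51.4 CPM in fl/fl untreated and at 74.4, 75.2, 68 and 65.6 CPM in fl/fl with IL-22. It was at 39.6, 43.3, 43 and 45.3 CPM in ΔIEC untreated and at 41.7, 45.7, 55.6 and 48 CPM in ΔIEC with IL-22. The treated fl/fl cultures were above all others, and the ΔIEC groups overlapped each other. In the untreated fl/fl group the first line was above the second. With IL-22, Klf9 was lower in ΔIEC than in fl/fl by -0.56 on the log2 scale (SE 0.12, adjusted p = 0.00109). This call was lost with the cultures of a line summed (adjusted p = 0.0478) and without the first ΔIEC line (adjusted p = 0.0412). Untreated, the log2 fold change was -0.38 (SE 0.12, adjusted p = 0.0288), and it passed without fl/fl untreated replicate 3 (adjusted p = 0.00453) and without the second fl/fl line (-0.57, adjusted p = 0.0014). Without the first fl/fl line it was -0.15 (adjusted p = 0.517). The log2 fold change with IL-22 was 0.35 in fl/fl (SE 0.11, adjusted p = 0.0235) and 0.17 in ΔIEC (SE 0.12, adjusted p = 0.333). With the organoid line as a block the fl/fl value was 0.36 and passed, with an adjusted p of 0.00107, and in limma-voom with the line as a correlated block it was 0.00327. Summed by line it did not pass (adjusted p = 0.163).

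Klf13 (ENSMUSG00000052040.10, chr7:63886351-63938915, - strand) was at 91.5, 91.4, 89.3 and 95.5 CPM in fl/fl untreated and at 95.4, 93.5, 104 and 102 CPM in fl/fl with IL-22. It was at 71, 70.6, 72 and 78.5 CPM in ΔIEC untreated and at 62, 84.6, 93.1 and 86.2 CPM in ΔIEC with IL-22. Treated and untreated cultures overlapped in both genotypes, and the ΔIEC cultures lay below the fl/fl cultures of the same treatment. No comparison of Klf13 passed. Its log2 fold change was 0.10 with IL-22 in fl/fl (adjusted p = 0.436), 0.17 with IL-22 in ΔIEC (adjusted p = 0.218), -0.34 between untreated genotypes (SE 0.097, adjusted p = 0.0186) and -0.27 between treated genotypes (SE 0.095, adjusted p = 0.034). Replicate 1 of ΔIEC with IL-22, the lowest culture of all, weighed on this: without it the adjusted p was 0.00221 between untreated genotypes and 0.00997 for IL-22 in ΔIEC. Klf13 also passed between untreated genotypes in a fit of these groups only (adjusted p = 0.0092) and between treated genotypes without the second ΔIEC line (adjusted p = 0.00896).

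Klf15 (ENSMUSG00000030087.11, chr6:90462576-90475238, + strand), a factor of amino acid and glucose metabolism in liver and muscle, was near the floor and was not tested. It had 2, 1, 3 and 5 counts in fl/fl untreated, 2, 3, 1 and 0 counts in fl/fl with IL-22, 2, 1, 0 and 0 counts in ΔIEC untreated and 0, 0, 2 and 3 counts in ΔIEC with IL-22. A difference in Klf15 was not detectable at this depth.

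**Figure D1:**
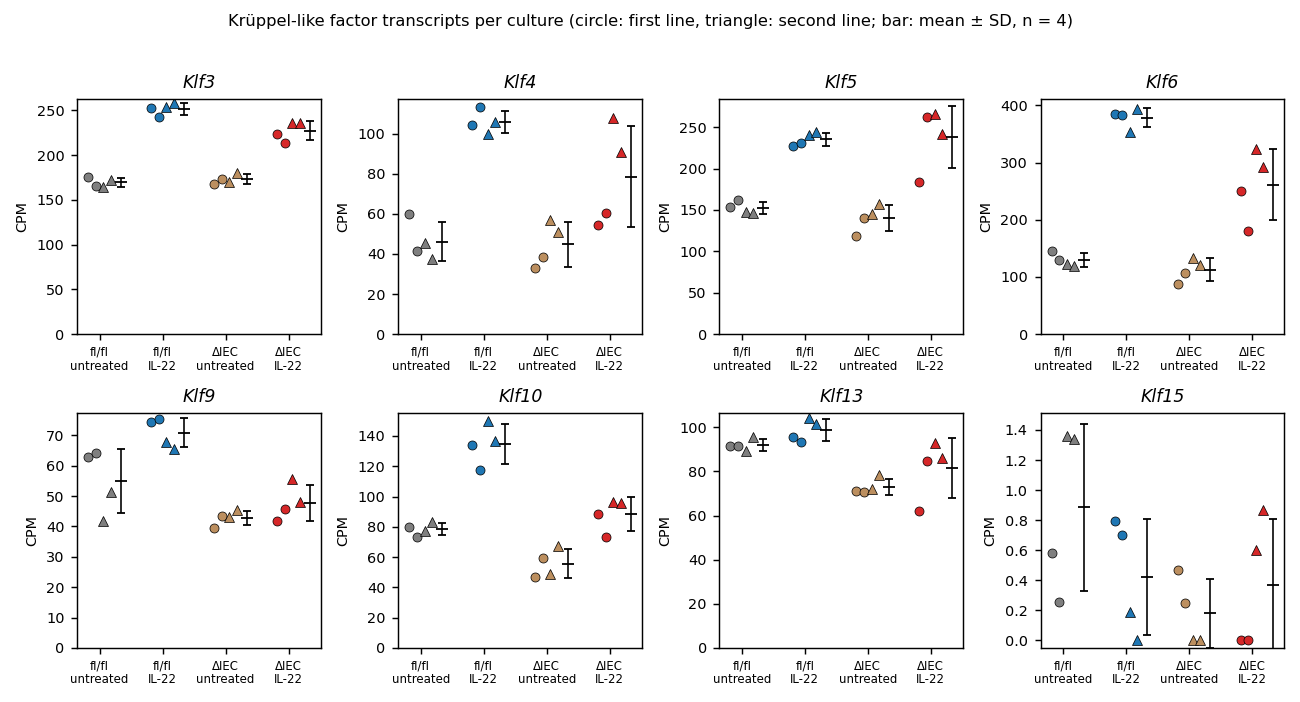
Level of each of the 8 KLF genes in CPM (vertical axis) in the 4 groups (horizontal axis); circles are cultures of the first line and triangles cultures of the second line of a genotype, and bars give the mean ± SD (n = 4). Klf6 sits between 354 and 393 CPM in fl/fl with IL-22 and between 118 and 146 CPM in fl/fl untreated, while Klf15 stays at or under 1.36 CPM.

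Of the 8 members, 7 passed the filter on low counts and were tested. With IL-22 in fl/fl, 5 of 7 were called higher (Klf3, Klf4, Klf5, Klf6 and Klf10), where 10.6% of 12559 tested genes were called higher, and 0 were called lower, where 10.2% of genes were. With IL-22 in ΔIEC, the same 5 of 7 were called higher, against 9.83% of genes, and 0 lower, against 7.65% of genes. Untreated ΔIEC against fl/fl gave 0 higher, against 3.78% of genes, and 1 lower (Klf10), against 5.98% of genes. Treated ΔIEC against fl/fl gave 0 higher, against 9.91% of genes, and 3 lower (Klf6, Klf9 and Klf10), against 9.84% of genes. These shares are printed for reference and nothing is read from them, since the same counts chose the genes. The comparisons share cultures: each untreated group serves an IL-22 effect and the untreated genotype comparison, and each treated group likewise. The median log2 fold change of the 7 members was 0.63, 0.67, -0.21 and -0.42 in the order given, and that of all tested genes was -0.045, -0.0073, -0.020 and 0.0072.

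Whether the IL-22 effect differed between genotypes was tested as an interaction, the ΔIEC effect minus the fl/fl effect. In edgeR 0 of 7 members passed, where 0.0159% of 12559 genes did. Over all genes, 912 had an unadjusted p under 0.05, and the 7 members had unadjusted p-values of 0.0624 or more. DESeq2, limma-voom and the fit with the line as a block also called 0 members. Over all genes, edgeR called 1 higher and 1 lower, the fit with the line as a block 15 and 41, DESeq2 3 and 8, and limma-voom 2 and 3. The log2 interaction was -0.32 for Klf6 (SE 0.20, adjusted p = 0.801), -0.35 for Klf4 (SE 0.28, adjusted p = 0.84), -0.17 for Klf3 (SE 0.087, adjusted p = 0.718), -0.11 for Klf10 (SE 0.16, adjusted p = 0.951) and 0.14 for Klf5 (SE 0.14, adjusted p = 0.901). It was -0.18 for Klf9 (adjusted p = 0.88) and 0.065 for Klf13 (adjusted p = 0.974). A different response of a member to IL-22 in the genotypes was thus not shown.

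**Figure D2:**
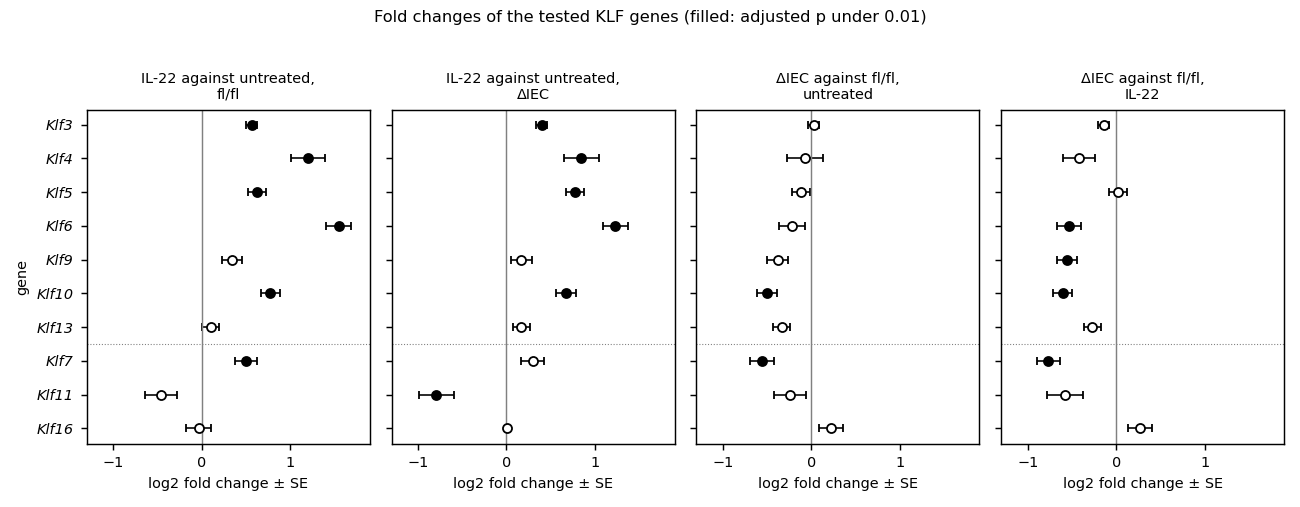
Log2 fold change ± SE (horizontal axis) of the 7 tested members and, under the dotted line, of Klf7, Klf11 and Klf16 (vertical axis) in 4 comparisons; filled points have an adjusted p under 0.01. Klf6 is at 1.55 and 1.23 in the IL-22 comparisons and at -0.53 between treated genotypes; no SE is drawn for Klf16 with IL-22 in ΔIEC, where the fold change was near 0.

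Levels of different genes were compared per kilobase of exon. In fl/fl untreated, the order was Klf6 (29.4 ± 2.75 CPM per kb, SD, n = 4), Klf5 (29.2 ± 1.4), Klf10 (18.8 ± 0.955), Klf4 (15.1 ± 3.18), Klf3 (15.1 ± 0.455), Klf13 (12.2 ± 0.344) and Klf9 (11.4 ± 2.19). Neighbours in this order whose mean ± SD overlapped were Klf6 and Klf5, Klf10 and Klf4, Klf4 and Klf3, and Klf13 and Klf9. In fl/fl with IL-22, Klf6 stood apart at 86.2 ± 3.86 CPM per kb, followed by Klf5 (45.3 ± 1.5), Klf4 (34.7 ± 1.86), Klf10 (32.2 ± 3.19), Klf3 (22.4 ± 0.558), Klf9 (14.7 ± 0.989) and Klf13 (13.1 ± 0.681). Here Klf4 and Klf10 overlapped, as did Klf9 and Klf13. In ΔIEC with IL-22, Klf6 (59.6 ± 14.2 CPM per kb) and Klf5 (45.8 ± 7.29) overlapped. Their untreated ΔIEC levels were 25.6 ± 4.6 and 27 ± 3.11 CPM per kb. The summed level of the 8 members was 723 ± 34.9 CPM in fl/fl untreated, 1276 ± 19.9 CPM in fl/fl with IL-22, 642 ± 58.6 CPM in ΔIEC untreated and 1024 ± 134 CPM in ΔIEC with IL-22.

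Across the 16 cultures, which share the treatment and genotype groups, the levels of the members that rose followed each other. Pearson's r of log2 CPM with Klf6 was 0.967 for Klf3, 0.952 for Klf4, 0.889 for Klf5 and 0.888 for Klf10 (n = 16 cultures). It was 0.67 for Klf9 and 0.492 for Klf13, and Klf9 and Klf13 had an r of 0.778 with each other. Among all tested genes, those with a pattern most like Klf6 included Krt20 (r = 0.986), a keratin of differentiated villus cells, and Casp8 (r = 0.983), the initiator caspase of death receptors. For Klf3 they were Sertad1 (r = 0.983), Ccdc71l (r = 0.978) and the small GTPase Nras (r = 0.976). For Klf4 they were Mboat1 (r = 0.976), the motor protein Myo1c (r = 0.976) and the autophagy receptor Sqstm1 (r = 0.975). For Klf5 they were Slc37a1 (r = 0.975), Ehbp1l1 (r = 0.971) and the receptor chain Il4ra (r = 0.971). For Klf10 they were Arl5b (r = 0.968), Zfp36 (r = 0.962), which destabilizes messenger RNA, and Vdac2 (r = 0.954). These values describe the 4 groups as much as the cultures within them.

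Of the 9 KLF genes outside the 8 members, 3 were tested: Klf7, Klf11 and Klf16. Klf7, a factor best known from neurons, was at 55.8, 51.5, 49 and 60.7 CPM in fl/fl untreated and at 71.3, 71.8, 85.2 and 79.1 CPM in fl/fl with IL-22. It was at 31.8, 36.4, 42.6 and 38.2 CPM in ΔIEC untreated and at 39.7, 34.6, 55.6 and 50.6 CPM in ΔIEC with IL-22. The ΔIEC cultures lay below the fl/fl cultures of the same treatment without overlap. Klf7 rose with IL-22 in fl/fl by 0.50 on the log2 scale (SE 0.12, adjusted p = 0.0039), a call lost without fl/fl untreated replicate 2 (0.0136) or 3 (0.0137) and without fl/fl with IL-22 replicate 3 (0.018) or 4 (0.0109). This call was also lost without the first (0.022) or second (0.109) fl/fl line. In ΔIEC, Klf7 was lower by -0.56 on the log2 scale untreated (SE 0.13, adjusted p = 0.00568) and by -0.77 with IL-22 (SE 0.13, adjusted p = 0.000157). The untreated call was lost without fl/fl untreated replicate 1 (0.016), 2 (0.0116) or 4 (0.0186) and without ΔIEC untreated replicate 1 (0.0302), 2 (0.0189) or 4 (0.0112). It was also lost in limma-voom with the line as a correlated block (0.0104). Without the first (0.0303) or second (0.0184) fl/fl line or the first ΔIEC line (0.0424) it was lost as well. With the cultures of a line summed, no call of Klf7 was kept (adjusted p = 0.0258 with IL-22 between genotypes). Exons of Klf7 overlap those of the opposite-strand Gm26649 over 3196 bases, and since the strand setting was not given, reads of this pair cannot be told apart over these bases.

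Klf11, a relative of Klf10, went the other way. It was at 17.2, 20.2, 12.7 and 18.5 CPM in fl/fl untreated, 13.5, 13.3, 12.8 and 11.1 CPM in fl/fl with IL-22, 14.4, 14, 17.3 and 13.3 CPM in ΔIEC untreated and 7.29, 5.4, 11.5 and 9.55 CPM in ΔIEC with IL-22. The treated ΔIEC cultures were below all untreated cultures. Klf11 fell with IL-22 in ΔIEC, by -0.79 on the log2 scale (SE 0.20, adjusted p = 0.00545), and had -0.46 in fl/fl (SE 0.18, adjusted p = 0.058). The ΔIEC call was lost without ΔIEC untreated replicate 1 (0.0134), 2 (0.0118) or 3 (0.0188) and without ΔIEC with IL-22 replicate 1 (0.0148) or 2 (0.0235), and the adjusted p was 0.162 without the first ΔIEC line, 0.0146 in a fit of the compared groups only and 0.0704 after summing by line. Klf16 passed in no comparison. Klf1, Klf2, Klf8, Klf12, Klf14 and Klf17 were not tested, with at most 14 counts in any culture, which Klf2 had.

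The SP factors share the zinc fingers of the KLFs, and 6 of 9 were tested. Sp5, a target of Wnt signaling, was the only one called, and in fl/fl with IL-22 only, which is 1 of 6 where 10.6% of all genes were higher. Its level was 17.5, 12.8, 18.1 and 13.4 CPM in fl/fl untreated and 32.5, 26.6, 29.3 and 27.6 CPM in fl/fl with IL-22, without overlap. The log2 fold change was 0.92 (SE 0.18, adjusted p = 0.000496), and in ΔIEC it was 0.48 (SE 0.17, adjusted p = 0.0409). Untreated ΔIEC cultures, at 19.8, 20.2, 28.1 and 24.5 CPM, were above the untreated fl/fl cultures without overlap, but the difference did not pass (log2 fold change 0.58, adjusted p = 0.0315). The test of the difference between these effects gave -0.44 (SE 0.25, adjusted p = 0.745). The Sp5 call was lost with the cultures of a line summed (0.0134) and without the first (0.016) or second (0.0177) fl/fl line. With IL-22 in ΔIEC, the count of SP genes called higher was 1 in place of 0 without ΔIEC with IL-22 replicate 1. Sp1, the SP gene with the most counts, had a log2 fold change of 0.10 with IL-22 in fl/fl (adjusted p = 0.344).

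Of 11 corepressors, coactivators and ubiquitin ligases that act with KLFs, all tested, IL-22 raised Ctbp2, a partner of KLF3, by 0.44 on the log2 scale in fl/fl (adjusted p = 0.00123) while Sin3a was lower at -0.30 (adjusted p = 0.00865). In ΔIEC, Kat2b was higher at 0.52 (adjusted p = 0.00261) and the ligase gene Wwp1 lower at -0.45 (adjusted p = 0.00418). These are 1 of 11 genes each, where 10.6% and 10.2% of all genes were called higher and lower in fl/fl and 9.83% and 7.65% in ΔIEC. None differed between genotypes at the threshold. Of these 4 counts of 1, only that of Ctbp2 did not move when single cultures were left out; the others moved between 0 and 2. Summed by line, all 4 counts were 0, and each was 0 without 1 of the lines. The median of the 11 genes was 0.084, 0.0095, 0.023 and 0.13 in the 4 comparisons.

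Growth factors and cytokines induce the immediate-early genes within minutes, and several KLFs are counted among such genes. This list and the others were chosen with earlier results of these data known. Their counts, printed beside the shares over all genes, are therefore no test of a list. Of 16 tested immediate-early genes, 12 were higher with IL-22 in fl/fl and 9 in ΔIEC, where 10.6% and 9.83% of all tested genes were higher, and 0 were lower in either. Those with the smallest p were Ier3 (log2 fold change 1.76 in fl/fl and 1.22 in ΔIEC), Zfp36 (1.06 and 0.88), Fosl2 (0.90 and 0.78) and Fos (1.39 and 1.26), the last a subunit of AP-1. The median of the list was 0.78 and 0.60, beside -0.045 and -0.0073 for all tested genes. Untreated, 3 of 16 were lower in ΔIEC: Egr1 (-0.56), Nr4a1 (-1.60) and Zfp36 (-0.51). This count was 0 without fl/fl untreated replicate 1 or 2 or ΔIEC untreated replicate 1 or 2, and 1 without ΔIEC untreated replicate 3. With IL-22, 8 of 16 were lower in ΔIEC than in fl/fl (9.84% of all genes; untreated 5.98%), with the smallest p for Atf3 (-0.80, adjusted p = 0.000196), Zfp36 (-0.68), Jun (-0.56) and Egr1 (-0.62). Medians between genotypes were -0.31 untreated and -0.55 treated, beside -0.020 and 0.0072 for all genes. When the cultures of each line were summed, which leaves 2 samples per group, the counts of 12, 9, 3 and 8 were 5, 2, 0 and 0. The summed level of the list was 1298 ± 98.4 CPM in fl/fl untreated, 2135 ± 58.3 CPM in fl/fl with IL-22, 1077 ± 141 CPM in ΔIEC untreated and 1551 ± 309 CPM in ΔIEC with IL-22.

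Klf10 has its history as a TGF-β early gene and Klf9 as a glucocorticoid target. Of 10 tested early genes of TGF-β, 3 were higher with IL-22 in fl/fl: Tgif1 (0.65), Pmepa1 (0.84) and Skil (0.38), all regulators of SMAD signaling. In ΔIEC, 2 were higher, Pmepa1 (1.02) and Tgif1 (0.58). Of all tested genes, 10.6% and 9.83% were higher in these comparisons. Between genotypes 0 passed untreated and 1 was lower with IL-22, Skil (-0.33, adjusted p = 0.00681), a call lost without fl/fl with IL-22 replicate 2, 3 or 4 or ΔIEC with IL-22 replicate 2 or 4. That is 1 of 10, where 9.84% of all genes were lower. As a list these genes had medians of 0.21, 0.11, -0.066 and -0.13 in the 4 comparisons. Of 7 tested glucocorticoid-induced genes, Errfi1, a feedback inhibitor of EGF receptors, was higher with IL-22 in fl/fl (1.10) and ΔIEC (0.87). Hsd11b2, which inactivates glucocorticoids, was lower with IL-22 in ΔIEC (-1.46, adjusted p = 0.00639), a call lost without ΔIEC untreated replicate 1, 2 or 4 or ΔIEC with IL-22 replicate 1, 3 or 4. Tsc22d3 (-0.50) and Fkbp5 (-0.54) were lower in untreated ΔIEC than in fl/fl. Fkbp5 (-1.12, adjusted p = 2.43e-06), Errfi1 (-0.60) and Per1 (-1.02) were lower in treated ΔIEC. Of all tested genes, 7.65% were lower with IL-22 in ΔIEC, 5.98% between untreated and 9.84% between treated genotypes. A count of 1 of 7 genes is near the shares higher or lower with IL-22. The count higher in fl/fl was 3 with the line as a block, 3 in limma-voom and 2 in DESeq2. It was 2 without fl/fl untreated replicate 1 or ΔIEC with IL-22 replicate 3. The untreated count of 2 was 0 without fl/fl untreated replicate 2 or ΔIEC untreated replicate 1, and 1 without fl/fl untreated replicate 4 or ΔIEC untreated replicate 3. It was 0 in limma-voom with the line as a correlated block and 3 in DESeq2. The treated count of 3 was 1 without fl/fl with IL-22 replicate 3 or ΔIEC with IL-22 replicate 1 or 2. Summed by line, the early genes of TGF-β gave 0 in each comparison and the glucocorticoid-induced genes lower between genotypes gave 0 untreated and 1 treated. Medians of the 7 genes were -0.044, -0.13, -0.37 and -0.60.

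Klf9 and Klf10 are also known as genes under the circadian clock. Of 16 tested clock genes, 6 were lower and 1 higher with IL-22 in fl/fl, and 5 were lower and 1 higher in ΔIEC. Of all tested genes, 10.2% and 7.65% were lower and 10.6% and 9.83% higher in these comparisons. The lower genes with the smallest p included Dbp (-1.44 in fl/fl and -1.08 in ΔIEC) and Tef (-1.18 and -0.87), both PAR bZIP factors, and Per3 (-1.18 and -1.43). The higher gene was the repressor Nfil3 (0.81 and 1.10). In untreated ΔIEC against fl/fl, 7 of 16 were lower (5.98% of all genes), among them Dbp (-1.20, adjusted p = 0.000186), Bhlhe40 (-0.74) and Per3 (-1.03). This count was 3 without fl/fl untreated replicate 4 or ΔIEC untreated replicate 1 or 2, and 4 without ΔIEC untreated replicate 3 or 4. In treated ΔIEC, 8 were lower (9.84% of all genes), among them Nr1d1 (-0.94, adjusted p = 6.13e-05), Bhlhe40 (-0.75) and Per3 (-1.29). This count was 3 without fl/fl with IL-22 replicate 3, 4 without ΔIEC with IL-22 replicate 2 or 4, and 5 without fl/fl with IL-22 replicate 4 or ΔIEC with IL-22 replicate 1. Over the list the median was -0.53, -0.41, -0.51 and -0.59 in the 4 comparisons. The counts of lower genes, 6, 5, 7 and 8, summed by line were 3, 2, 1 and 1. In limma-voom with the line as a correlated block they were 8, 7, 4 and 4. When single lines were left out, they were 4, 0, 3 and 3 at the lowest. The hour of harvest was not given in the sources used here, and its part in these values was not tested.

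Genes linked to single members were read as lists. Of all tested genes, 10.6% were higher and 10.2% lower with IL-22 in fl/fl, 9.83% and 7.65% in ΔIEC, 3.78% and 5.98% between untreated genotypes and 9.91% and 9.84% between treated genotypes, so a call of 1 gene of 11 is near the share over all genes in most comparisons. Of 11 genes of differentiation and cell cycle linked to KLF4, Krt19 (0.79) and the goblet cell factor Spdef (0.73) were higher and the mitotic cyclin Ccnb1 (-0.72) lower with IL-22 in fl/fl. Krt19 (0.66) and the cell cycle inhibitor Cdkn2b (0.53) were higher in ΔIEC. Cdkn2b (-0.55) was lower in untreated ΔIEC than in fl/fl. In treated ΔIEC, Ccnb1 (0.78) was higher and Spdef (-0.94), Cdkn1b (-0.50) and Ccnd2 (-0.39) were lower. Medians of these genes were -0.055, -0.14, -0.14 and -0.082. Of 11 genes of crypt proliferation linked to KLF5, 4 were lower (Cdk1, -0.69; Mki67, -0.49; Ccnb1, -0.72; Pcna, -0.30) and Cdh1 (0.49) was higher with IL-22 in fl/fl, although Klf5 itself rose. In ΔIEC, 2 were lower, Pcna (-0.42) and Ascl2 (-0.57), and 0 higher. Between genotypes, Ascl2 (1.23) and Mki67 (0.49) were higher in untreated ΔIEC. In treated ΔIEC 5 were higher, with Ascl2 (1.22), Mki67 (0.74), Cdk1 (0.71) and Birc5 (1.04) at the smallest p, and 1 lower, Lgr5 (-0.86). The medians were -0.32, -0.23, 0.21 and 0.20.

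Of 11 tested genes of amino acid catabolism linked to KLF15, Tat, a tyrosine aminotransferase, rose with IL-22 by 7.09 on the log2 scale in fl/fl (SE 0.56, adjusted p = 1.35e-08) and by 7.03 in ΔIEC (SE 0.57, adjusted p = 1.8e-08). Tat had at most 1 count in any untreated culture, below the floor, so the size of these fold changes is not determined. Klf15 itself had at most 5 counts in any culture. The genes lower with IL-22 were Bckdk (-0.47), Bckdha (-0.72) and Gpt (-0.80) in fl/fl and Bckdhb (-1.09) and Bckdk (-0.43) in ΔIEC. Gpt (-0.91) and Gpt2 (-0.51) were lower in untreated ΔIEC, and Bcat2 (0.57) was higher in treated ΔIEC. Over the list the median was -0.030, 0.040, -0.087 and -0.082. Summed by line, only Tat in both IL-22 comparisons and 1 of the 5 KLF5-linked genes higher in treated ΔIEC were called in these 3 lists. The counts of 1 or 2 genes moved by up to 2 genes when single cultures were left out.

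The reach of the cytokine was read from 11 genes of the IL-22 response. Of these, 10 were higher with IL-22 in each genotype and 0 lower, with the smallest p for Reg3b (10.53 in fl/fl and 11.22 in ΔIEC on the log2 scale), Reg3g (9.66 and 10.09), Socs3 (4.53 and 4.31) and Fut2 (6.34 and 8.30). Stat3 itself was higher at 1.35 and 1.47. By the same threshold, IL-22 raised 10.6% of all tested genes in fl/fl and 9.83% in ΔIEC, and lowered 10.2% and 7.65%. Between untreated genotypes 1 was higher in ΔIEC, Nos2 (1.30), a call lost without fl/fl untreated replicate 2. Between treated genotypes 4 of 11 were higher in ΔIEC, Fut2 (1.01), Nos2 (1.31), Duoxa2 (1.05) and Reg3b (0.49), and 0 lower. Of all tested genes, 3.78% were higher between untreated and 9.91% between treated genotypes, and 5.98% and 9.84% were lower. The 11 genes had medians of 3.51, 4.41, -0.16 and 0.34. Between the treated genotypes, Klf6, Klf9 and Klf10 were lower in ΔIEC. These 3 calls were lost with the cultures of a line summed and without the first ΔIEC line. For the 11 genes of the IL-22 response, the counts of 10, 10, 1 and 4 were 9, 9, 0 and 1 when summed by line.

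Markers of epithelial cell types moved in the same comparisons, and their part in the KLF values was not tested. Of all tested genes, 10.2% were lower and 10.6% higher with IL-22 in fl/fl, and 7.65% and 9.83% in ΔIEC. With IL-22, enterocyte markers were lower for 9 of 11 genes in fl/fl and 6 of 11 in ΔIEC, led by Lct (-4.06 and -4.37); with the line as a block these counts were 11 and 10. Their summed level was 4092 ± 233 CPM in fl/fl untreated, 1429 ± 186 CPM in fl/fl with IL-22, 4196 ± 371 CPM in ΔIEC untreated and 1668 ± 469 CPM in ΔIEC with IL-22, with Alpi the most abundant over all cultures. Stem cell markers were lower for 4 of 7 in fl/fl and 6 of 7 in ΔIEC, led by Smoc2 (-1.55 and -1.52), with 6 and 7 when the line was a block, and their sum was 1981 ± 177, 983 ± 53.6, 2526 ± 117 and 1145 ± 153 CPM in the order just used, with Slc12a2 the most abundant. Markers of proliferating cells were lower for 7 of 8 in fl/fl and 3 of 8 in ΔIEC, with 8 and 3 when the line was a block, and their sum was 1449 ± 244, 996 ± 90.5, 1811 ± 75.4 and 1518 ± 156 CPM, with Top2a the most abundant. Of the general epithelial markers, 5 of 9 were higher in fl/fl and 2 of 9 in ΔIEC, led by Krt20 (1.54 and 1.15); with the line as a block both counts were 6. The fl/fl count was 3 without fl/fl untreated replicate 3 or 4 or fl/fl with IL-22 replicate 2. The sum of the epithelial markers was 8015 ± 1092, 11650 ± 952, 7739 ± 779 and 9966 ± 1691 CPM, with Krt8 the most abundant.

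Of all tested genes, 5.98% were lower in ΔIEC untreated and 9.84% with IL-22. Between genotypes, Paneth cell markers were lower in ΔIEC for 5 of 8 untreated and 7 of 8 with IL-22, led by Defa24 (-1.62 and -1.71), which was also the most abundant. Their sum was 7353 ± 1339 CPM in fl/fl untreated, 8885 ± 1204 CPM in fl/fl with IL-22, 3886 ± 531 CPM in ΔIEC untreated and 4523 ± 400 CPM in ΔIEC with IL-22. Goblet cell markers were lower for 4 of 8 untreated and 5 of 8 with IL-22, and their sum was 2213 ± 508, 2002 ± 380, 1564 ± 226 and 1067 ± 250 CPM, with Fcgbp the most abundant. The untreated goblet count was 2 without ΔIEC untreated replicate 1. Enteroendocrine markers were lower for 2 of 9 untreated and 4 of 9 with IL-22. When single cultures were left out, these counts ran from 0 to 2 and from 1 to 5. Their sum was 500 ± 135, 612 ± 82.6, 319 ± 71.1 and 364 ± 123 CPM, with Chgb the most abundant.

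Proliferation markers were higher in ΔIEC than in fl/fl for 1 of 8 untreated and 7 of 8 with IL-22, led by Mki67 (0.49 and 0.74), where 3.78% and 9.91% of all genes were higher. The untreated count was 0 without fl/fl untreated replicate 2 or ΔIEC untreated replicate 1 and 3 without fl/fl untreated replicate 3 or 4. Stem cell markers were higher for 3 of 7 in both, led by Olfm4 with IL-22 (3.04), and lower for 1 with IL-22, Lgr5, a call lost without fl/fl with IL-22 replicate 1, 2 or 3 or ΔIEC with IL-22 replicate 1, 2 or 4. With IL-22 in fl/fl, Paneth markers gave 1 higher (Mmp7, 1.61) and 1 lower, goblet markers 3 higher, led by Muc2 (0.96), and 1 lower, and enteroendocrine markers 2 higher, led by Tac1 (1.87). In ΔIEC the counts were 1 higher and 1 lower, 2 higher and 2 lower, and 1 higher. Of all tested genes, 10.6% were higher and 10.2% lower with IL-22 in fl/fl, and 9.83% and 7.65% in ΔIEC. A count of 1 of 8 is near these shares, and nothing is read from it. Between genotypes, 5.98% of all genes were lower in ΔIEC untreated and 9.84% with IL-22. In fl/fl, the lower counts of the Paneth and goblet markers fell to 0 and the higher count of the enteroendocrine markers to 1 when any of several single cultures was left out. The lower count of the goblet markers in ΔIEC ran from 1 to 3. Enterocyte markers were higher for 1 and lower for 1 of 11 untreated and higher for 4 with IL-22, which was 2 without fl/fl with IL-22 replicate 2 or ΔIEC with IL-22 replicate 1 or 2. Of the 7 tuft cell markers 3 were tested, and Avil was higher with IL-22 in fl/fl (1.82) and ΔIEC (1.81), with a summed level of at most 37.2 CPM in any culture and Il25 at 0 in 15 of 16 cultures. Of the 3 tested immune markers, Cd14 was higher with IL-22 in fl/fl (0.91) and ΔIEC (1.02) and higher in treated ΔIEC than in treated fl/fl (0.79), and the summed level of the 9 immune markers was at most 34.1 CPM.

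In samples summed by line, most of these marker counts were lost. Between genotypes, the lower Paneth counts of 5 and 7 were 0 untreated and 2 treated, and the lower goblet counts of 4 and 5 were 0 in both. The higher counts in treated ΔIEC were 0 for the 7 proliferation and 4 enterocyte markers and 2 for the 3 stem cell markers, which were 0 of 3 untreated, and the lower enteroendocrine counts of 2 and 4 were 0. With IL-22, the lower enterocyte counts of 9 in fl/fl and 6 in ΔIEC were 4 and 3, the lower stem cell counts of 4 and 6 were 4 in both, the lower proliferation counts of 7 and 3 were 0, the higher goblet count of 3 in fl/fl was 0, and the higher epithelial counts of 5 and 2 were 1 and 0.

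Promoters are printed for the members called in a comparison that have an entry in the RefSeq promoter table. They show the bases around the start of these genes, which were not all called in the same comparisons. The table holds 6 of the 8 members, without Klf5 and Klf10. The windows are 300 bases each on GRCm38.p6 and run from 250 bases before to 50 bases after the RefSeq start. For Klf3 this start lies downstream of the gene start given above, chr5:64803388. The Klf3 matches marked from base 131 of the window on therefore lie within the gene as given above. Capitals mark matches on either strand to TTCNNNGAA, the core bound by STAT factors, GGGCGG, the GC box, CACCC, the CACCC box, or CACGTG, the E-box bound by clock factors and others. The windows are Klf6 at chr13:5861239-5861538 on the + strand, Klf4 at chr4:55532426-55532725 on the - strand, Klf3 at chr5:64803271-64803570 on the + strand and Klf9 at chr19:23140976-23141275 on the + strand, all read 5′ to 3′ along the gene.
Klf6: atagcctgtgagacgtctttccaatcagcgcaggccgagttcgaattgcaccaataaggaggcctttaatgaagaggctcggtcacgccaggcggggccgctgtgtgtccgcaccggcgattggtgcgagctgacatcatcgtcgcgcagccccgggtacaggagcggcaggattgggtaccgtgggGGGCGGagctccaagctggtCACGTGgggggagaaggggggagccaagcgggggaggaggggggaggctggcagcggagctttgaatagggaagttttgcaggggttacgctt
Klf4: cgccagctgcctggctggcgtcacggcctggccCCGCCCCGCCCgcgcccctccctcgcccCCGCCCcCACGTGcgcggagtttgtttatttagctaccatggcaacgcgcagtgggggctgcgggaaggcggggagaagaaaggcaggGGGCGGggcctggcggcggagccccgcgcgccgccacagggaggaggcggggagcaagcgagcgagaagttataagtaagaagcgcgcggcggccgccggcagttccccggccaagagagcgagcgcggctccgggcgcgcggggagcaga
Klf3: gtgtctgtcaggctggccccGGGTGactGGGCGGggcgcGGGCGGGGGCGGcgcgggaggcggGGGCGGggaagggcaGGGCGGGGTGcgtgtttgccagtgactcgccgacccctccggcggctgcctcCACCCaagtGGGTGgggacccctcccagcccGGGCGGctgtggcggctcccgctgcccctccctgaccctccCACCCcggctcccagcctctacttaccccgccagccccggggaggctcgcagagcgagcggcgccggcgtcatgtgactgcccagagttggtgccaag
Klf9: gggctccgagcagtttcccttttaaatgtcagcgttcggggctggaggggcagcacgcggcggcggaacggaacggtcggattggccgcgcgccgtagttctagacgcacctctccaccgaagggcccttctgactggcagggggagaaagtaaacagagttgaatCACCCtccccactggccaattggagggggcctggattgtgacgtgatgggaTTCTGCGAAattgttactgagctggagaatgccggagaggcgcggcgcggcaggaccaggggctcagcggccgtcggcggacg

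The STAT core is in 8.3% of the 32851 promoters of the table and in 1 of the 6 member promoters, that of Klf9. The GC box is in 35.7% of promoters and in 5 of 6 members, with 1 match in Klf6, 4 in Klf4, 6 in Klf3, 3 in Klf13, 1 in Klf15 and 0 in Klf9. The CACCC box is in 57.5% of promoters and in 4 of 6 members, with 5 matches in Klf3 and 0 in Klf4 and Klf6. The E-box is in 7.15% of promoters and in 3 of 6 members, with 1 match in Klf6, 1 in Klf4 and 3 in Klf15. In 2 places of the member promoters, matches of a GC box and a CACCC box overlap, 1 in Klf3 and 1 in Klf13. The share of G and C was 63% in Klf6, 74.3% in Klf4, 76.7% in Klf3 and 63.3% in Klf9. A match describes letters in this window only and says nothing of binding.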

How the data were processed

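The gene counts were made by the authors before they were deposited: reads were trimmed with cutadapt, aligned with TopHat2 to the mouse genome (mm10, GRCm38) and counted per Ensembl gene with HTSeq, for which no versions were given. The strand setting of the counting was not given. The kit is stated differently in the sources, as TruSeq RNA v2 in the sample labels and as stranded total RNA TruSeq in the methods of the paper. Of each deposited column, 36.3% to 38.3% of counts were on genes and 38% to 40.1% on no feature. Counts of Ensembl genes were named with GENCODE M21, which held 49326 (99.5%) of 49585 ids, 43749 of them with the same version. Members and lists were chosen with earlier results of these data known.

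All 16 cultures entered 1 fit of 4 group means in edgeR 4.0.16 (R 4.3.3) with TMM factors, the filter filterByExpr (12559 genes tested) and the quasi-likelihood F test; p was adjusted over all tested genes by the Benjamini-Hochberg method, and an adjusted p under 0.01 was called. The SE was taken as the absolute log2 value over the root of F. A count of 3 was taken as the floor, and log2 CPM used a prior count of 2. The common biological coefficient of variation was 0.115. The fit was tested on simulated counts of independent cultures with a common dispersion. No difference between lines was simulated, so the test cannot show how the fit treats cultures that share a line. Python 3.11.15, NumPy 2.4.6 and matplotlib 3.10.9 were used for tables and plots.

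Genes named in a list are from the 4 called with the smallest p per comparison and direction, and not every such gene is named. The members, the other KLF and SP genes and the targeted gene are named besides; of the 3 tested genes with the highest r to a member, 2 or 3 are named for 5 members; Stat3, Epcam and markers named for their level or absence were chosen after their values were seen. The alternatives were DESeq2 1.42.0, limma-voom (limma 3.58.1) with the line as a correlated block, the line as a replicate block in edgeR for IL-22 effects and the interaction, the cultures of a line summed, a fit of the compared groups only, RLE in place of TMM factors, no filter on low counts, an adjusted p under 0.05, and leaving out each culture and each line. A stricter filter of at least 10 counts in every culture, which left 10329 tested genes, was a further alternative. The organoid number in the labels was taken as the line. As a check of this pairing, each untreated culture was correlated with each treated culture of its genotype after group means were removed. Cultures of the same line had r of 0.263 to 0.438 in fl/fl and 0.0563 to 0.321 in ΔIEC. Cultures of different lines had -0.435 to -0.218 and -0.352 to -0.0779 (8 pairs each). Removing the group means sets the sign of these last values against the first, so they are not a separate check.

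Lists were the other KLF genes, SP factors, KLF corepressors and coactivators, immediate-early genes, early genes of TGF-β, glucocorticoid-induced genes, clock genes, genes linked to KLF4, KLF5 and KLF15, genes of the IL-22 response and markers of epithelium in general, of stem and proliferating cells, of Paneth, goblet, tuft and enteroendocrine cells, of enterocytes, and of immune and stromal cells. Promoters are from RefSeq.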

Additional observations from a re-analysis of the deposited data

Results flagged for a closer look

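Atg16l1 in replicate 2 of ΔIEC with IL-22 stood apart from the other cultures of its group, at 5.965 CPM (21 counts) against 0.81, 0.302 and 0.289 CPM (2, 1 and 1 counts). Of 36 sets of 4 cultures examined, it was the only one past the limit, which a set passes by chance about 1 time in 20. The culture was kept. The other 3 cultures were under the floor of 3 counts, so the size of the fold change of Atg16l1 between treated genotypes is not determined. Replicate 2 was the lowest culture of its group for Klf3, Klf6 and Klf10, and replicate 1 for Klf4, Klf5, Klf9 and Klf13. Its level of Atg16l1 was below every fl/fl culture, of which the lowest had 31.6 CPM. The cause was not tested.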

How the results depend on the processing

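Of 35 member values recomputed 994 times, 933 were kept, 36 lost their call, 14 gained one and 11 changed sign. Kept values include those that were not called and stayed so, so the 933 do not measure how stable the calls were. The calls of Klf6 between treated genotypes and of Klf10 between untreated genotypes were each lost in 10 of 28 recomputations. With IL-22 in fl/fl, the count of 5 called members was 5 without each single culture and 6 with the organoid line as a replicate block (Klf9 added), and 4 (Klf4 lost) with each line summed to a single sample. With IL-22 in ΔIEC, the count of 5 was 2 (Klf5 and Klf6) with the cultures of a line summed and 2 without the second ΔIEC line, 5 with the line as a replicate block, and 4 to 6 without single cultures.

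Between untreated genotypes, the count of 1 was 2 (Klf10 and Klf13) in a fit of the compared groups only and 3 at an adjusted p under 0.05. It was 0 in limma-voom, 0 with the cultures of a line summed, 0 without the first fl/fl line, 0 without the first ΔIEC line and 0 without the second ΔIEC line. Without single cultures it was 0 (as without fl/fl untreated replicate 1) to 2 (without fl/fl untreated replicate 3). Between treated genotypes, the count of 3 was 0 with the cultures of a line summed, 0 without the first ΔIEC line and 5 without the second ΔIEC line. The interaction count of 0 did not move, also not with the line as a replicate block.

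Signs changed for values near 0. Klf4 between untreated genotypes was 0.090 without the first fl/fl line and 0.23 without the first ΔIEC line, and ran from -0.21 (without ΔIEC untreated replicate 3) to 0.087 (without fl/fl untreated replicate 1). Klf5 between treated genotypes was -0.045 without the first fl/fl line and -0.10 without the second ΔIEC line, and ran from -0.036 (without ΔIEC with IL-22 replicate 3) to 0.12 (without replicate 1). The Klf13 interaction was -0.0068 without the first fl/fl line and -0.090 without the second ΔIEC line, and ran from -0.0022 (without ΔIEC with IL-22 replicate 3) to 0.17 (without replicate 1).

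Over all genes, 1329 higher and 1279 lower with IL-22 in fl/fl became 1880 and 1957 with the line as a replicate block. Summing the cultures of each line, which leaves 2 samples per group, gave 356 and 187. In the same way, 1234 and 961 with IL-22 in ΔIEC became 385 and 250, 475 and 751 between untreated genotypes became 3 and 7, and 1245 and 1236 between treated genotypes became 56 and 132. Other causes of these differences were not tested. Depth limits Klf15 most, which at no more than 5 counts per culture could not be tested.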
